A study of Mus musculus with 6 samples.

Results

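A set of 34 protein-coding transcripts, drawn from many pathways, was at least 3-fold less abundant in Prdm10 knockout oocytes than in wildtype oocytes. It was taken from count tables of 27179 gene identifiers. A gene entered it when its wildtype mean was at least 5 CPM (the count divided by the library total and multiplied by 1e6), its wildtype mean was at least 3 times its knockout mean, and its highest knockout value was below its lowest wildtype value. Of 9400 protein-coding genes at that wildtype level, mitochondrial genes left out, 49 met the ratio and did not overlap, which is 0.521%. Prdm10 itself and another 14 of these 49 were left out by name, which left 34. Such a lack of overlap is common, since every knockout value was below every wildtype value in 20.9% of those 9400 genes, and the groups did not overlap in either direction in 40.4% of all genes tested. The members were thus chosen by their knockout and wildtype values. Their differences between the genotypes are given below as a description, with no test.

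RNA was measured in germinal vesicle oocytes of the mouse, fully grown oocytes arrested in prophase of the first meiotic division. The 3 knockout libraries came from maternal knockout oocytes, in which a Cre recombinase driven by the Zp3 promoter had deleted the floxed exon 5 of Prdm10. The 3 wildtype libraries came from oocytes with no such deletion according to the labels, which do not say whether the wildtype females carried the floxed allele or the Cre. About 10 oocytes were pooled for each library. The labels call the libraries biological replicates but do not say that each came from a separate female, so the spread given is that between these pools. Zp3 is expressed in growing oocytes and not in the surrounding follicle cells, so the deletion is limited to the oocyte from the growth phase on.

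Prdm10 encodes a PRDM family protein with zinc fingers that bind DNA in a sequence-specific manner, and it acts as a transcriptional regulator. A growing oocyte transcribes and stores most of the mRNA it will use, and at the end of growth transcription stops until after fertilisation. An mRNA level in a germinal vesicle oocyte is thus the stock left by synthesis and decay over weeks of growth.

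Library totals ran from 33698776 to 37966868 counts in knockout and from 22492228 to 38831227 in wildtype, so 1 read was worth 0.0263 to 0.0297 CPM in knockout and 0.0258 to 0.0445 CPM in wildtype. Prdm10 was at 2.82, 3.79 and 3.03 CPM in knockout and at 11.2, 22.2 and 22.3 CPM in wildtype. The 10 oocyte markers checked, among them Gdf9 and the zona pellucida genes, summed to between 26708 and 28536 CPM in knockout and between 26590 and 27385 CPM in wildtype. Single markers were less even than this sum, with wildtype replicate 1 low for some and high for others. In wildtype, Bmp15 was at 2259, 5399 and 5219.6 CPM and Ooep at 4338, 2266 and 2183 CPM. The 10 granulosa and cumulus markers summed to between 56.5 and 68.2 CPM in knockout and between 65.4 and 73.4 CPM in wildtype. Wildtype replicate 1 stood apart from the other 2 wildtype libraries. Its chi-square per gene against them was 155 to 171, where wildtype replicates 2 and 3 gave 4.6 and the knockout pairs 4.7 to 16. Its mitochondrial transcripts made up 0.744% of counts, against 0.0828% to 0.106% in knockout and 0.176% and 0.193% in the other wildtype libraries. In bulk pools, fewer oocytes carrying a transcript and less of it per oocyte cannot be told apart.

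The 34 transcripts together summed to 141, 180.1 and 147 CPM in the knockout libraries and to 1369, 962 and 1009 CPM in the wildtype libraries. The median member had 2.65 CPM in knockout and 18.1 CPM in wildtype. The ratio of the wildtype mean to the knockout mean, a ratio that is above 1 where knockout is lower, had a median of 6.85 and ran from 3.07 to 231. The same ratio over the other 9351 protein-coding genes at that level had a median of 1.01. The members did not form 1 tight size class. The ratio was at least 20 in 5 of them, at least 10 in 13 and under 4 in 9. Only the upper end of that range amounts to loss of the transcript. In 29 members the lowest wildtype library was at least 2 times the highest knockout library, and in 13 it was at least 5 times.

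Nor were the members highly abundant as a set. Per kilobase of exon, the median member had 0.774 CPM in knockout and 9.34 CPM in wildtype, and the median of the other genes at the same CPM minimum was 12.4 CPM per kilobase in knockout and 12.5 in wildtype. In wildtype, 13 of the 34 members lay above the other genes' median level per kilobase. The highest level per kilobase was that of Rnasek, at 31.4 CPM per kilobase in knockout and 212 in wildtype.

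Among those nearest to the ratio minimum on the inside were Bzw2 at 3.07, Cadps2 at 3.17 and Zfp628 at 3.21. Nearest on the outside were Ptcd2 at 2.98, Adssl1 at 2.93, Rnf152 at 2.91 and Fstl5 at 2.87. A further pair of genes, C130074G19Rik and Inafm1, had ratios of 3.12 and 3.06 but overlapped between the genotypes. Their wildtype means rested on wildtype replicate 1. C130074G19Rik was at 8.4, 6.12 and 5.0 CPM in knockout and at 50.7, 5.68 and 4.62 CPM in wildtype.

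**Figure D1:**
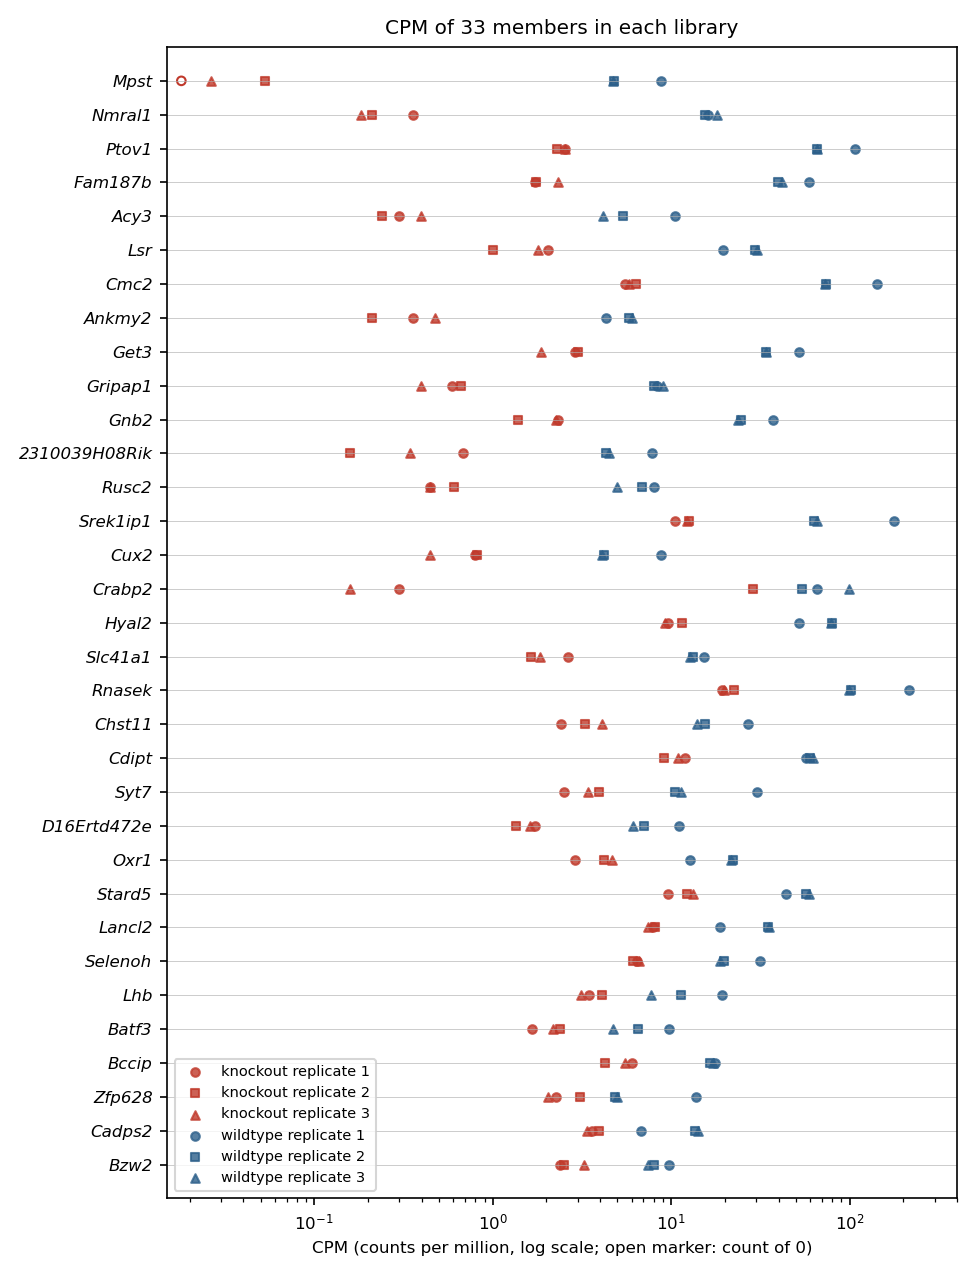
CPM of 33 members in the 3 knockout and the 3 wildtype libraries, on a log axis, with members ordered by the ratio of wildtype mean to knockout mean; an open marker is a count of 0. Mpst is at the top with a ratio of 231 and Bzw2 at the bottom with 3.07, and Crabp2 in knockout replicate 2 lies away from the other knockout libraries.

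**Figure D2:**
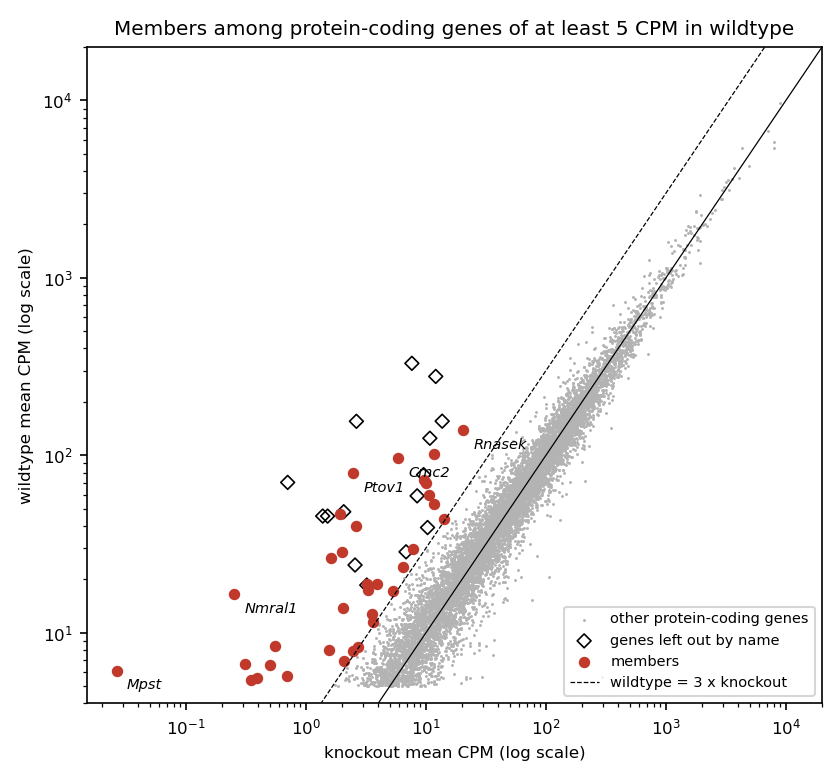
Knockout mean CPM against wildtype mean CPM on log axes, for protein-coding genes with a wildtype mean of at least 5 CPM. Members and the genes left out by name lie left of the dashed line at a ratio of 3, and the other genes follow the line of equality with a median ratio of 1.01.

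Enzymes, with the NADPH-binding protein Nmral1 grouped among them, made up 7 of the members. Mpst had the largest ratio. It encodes 3-mercaptopyruvate sulphurtransferase, which passes sulphur from a cysteine breakdown product to acceptors and releases hydrogen sulphide. Mpst (chr15:78406712-78414015, plus strand, GRCm38.p6) was at 0, 0.053 and 0.0263 CPM in knockout and at 8.83, 4.79 and 4.71 CPM in wildtype. These were 3 reads in all in knockout and 578 in wildtype. The summed ratio was 239 with a 95% counting interval of 81.3 to 1161. That interval leaves out the spread between pools and the choice of Mpst by these same counts. The transcript was close to the detection limit in each knockout pool. Nmral1 encodes an NADPH-binding protein related to the fungal regulator NmrA. Nmral1 (chr16:4711317-4719356, minus strand) was at 0.356, 0.212 and 0.184 CPM in knockout and at 16.1, 15.4 and 18.1 CPM in wildtype, a ratio of 65.9. Its wildtype libraries were the more even of the pair, and its ratio without wildtype replicate 1 was 66.8. Acy3, an aminoacylase that removes acetyl groups from N-acetylated aromatic amino acids, was at 0.297, 0.239 and 0.395 CPM in knockout and at 10.5, 5.34 and 4.13 CPM in wildtype. The ratio was 21.5, and 15.3 without wildtype replicate 1.

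Among the other enzymes, Rnasek, a small membrane protein described as a ribonuclease, was at 19.3, 22.5 and 19.8 CPM in knockout and at 214, 102 and 99.1 CPM in wildtype. Wildtype replicate 1 was the high one, and the ratio was 6.74 with it and 4.9 without it. Hyal2, a cell-surface hyaluronidase, was at 9.56, 11.5 and 9.22 CPM in knockout and at 51.9, 80.0 and 78.3 CPM in wildtype. Here wildtype replicate 1 was the low one. Cdipt, which makes phosphatidylinositol, was at 11.9, 9.07 and 10.9 CPM in knockout and at 56.8, 60.4 and 62.2 CPM in wildtype, with even libraries in both genotypes and a ratio of 5.64. Chst11, which adds sulphate to chondroitin, ran from 2.4 to 4.08 CPM in knockout and from 14.0 to 27.1 CPM in wildtype. The 7 members of this group, Nmral1 included, summed to between 43.8 and 46.9 CPM in knockout libraries and between 281 and 385 CPM in wildtype libraries.

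Mitochondrial assembly and protection from oxidation accounted for 3 members. Cmc2 encodes a small protein of the mitochondrial intermembrane space that takes part in the assembly of cytochrome c oxidase. It was at 5.52, 6.39 and 5.79 CPM in knockout and at 143, 73.7 and 72.7 CPM in wildtype. The knockout libraries lay close together, and the ratio was 16.3, or 12.4 without wildtype replicate 1. Oxr1, an oxidation resistance protein, ran from 2.88 to 4.64 CPM in knockout and from 12.8 to 22.2 CPM in wildtype. Selenoh, a selenoprotein with a redox fold, ran from 6.12 to 6.61 CPM in knockout and from 18.9 to 31.4 CPM in wildtype.

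Proteins of membrane insertion and of lipid, retinoid and ion handling made up 5 members. Get3 is the ATPase that carries tail-anchored proteins to the endoplasmic reticulum. It was at 2.88, 3.02 and 1.87 CPM in knockout and at 51.9, 34.1 and 34.1 CPM in wildtype, a ratio of 15.5. Stard5, a cytosolic sterol-binding protein with a START domain, was at 9.58, 12.2 and 13.2 CPM in knockout and at 43.9, 56.7 and 59.1 CPM in wildtype. Both genotypes were tight and far apart for Stard5. Slc41a1, a magnesium transporter, ran from 1.64 to 2.64 CPM in knockout and from 12.8 to 15.3 CPM in wildtype.

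Crabp2 differed from all other members in its knockout libraries. It encodes a cytosolic protein that carries retinoic acid to the nucleus. Crabp2 was at 0.297, 28.7 and 0.158 CPM in knockout, which were 10, 1083 and 6 reads, and at 66.1, 54.1 and 99.1 CPM in wildtype. Knockout replicate 2 thus lay between the other knockout libraries and wildtype, and the groups still did not overlap. The ratio was 7.51 with that library and 321 without it. In the same library, the other 33 members summed to 151 CPM, against 140.4 and 147 CPM in knockout replicates 1 and 3. The theca and stroma markers summed to 7.11 CPM there, against 6.97 and 18.0 CPM in knockout replicates 1 and 3, and the granulosa and cumulus markers had their lowest sum of all libraries there, 56.5 CPM. The cause of the Crabp2 value in knockout replicate 2 was not tested.

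Vesicle traffic and exocytosis were represented by 4 members. Gripap1, an adaptor of recycling endosomes, was at 0.593, 0.663 and 0.395 CPM in knockout and at 8.32, 7.98 and 8.98 CPM in wildtype, a ratio of 15.3 with the 3 wildtype libraries nearly level. Cadps2, a priming factor of dense-core vesicles, was at 3.59, 3.92 and 3.37 CPM in knockout and at 6.82, 13.6 and 14.1 CPM in wildtype. Its lowest wildtype library, replicate 1, came nearer to knockout than the other 2 did. Syt7, a calcium sensor of exocytosis, ran from 2.52 to 3.92 CPM in knockout and from 10.5 to 30.1 CPM in wildtype. Rusc2, an adaptor that binds Rab GTPases, ran from 0.445 to 0.61 CPM in knockout and from 4.98 to 8.06 CPM in wildtype.

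Signalling and cell contact took in 5 members. Gnb2, a beta subunit of heterotrimeric G proteins, was at 2.31, 1.38 and 2.27 CPM in knockout and at 37.1, 24.5 and 23.7 CPM in wildtype. Lsr, a membrane protein of tricellular junctions and a lipoprotein receptor, was at 2.05, 1.01 and 1.79 CPM in knockout and at 19.6, 29.5 and 30.1 CPM in wildtype. The ratio was 14.3 for Gnb2 and 16.4 for Lsr, with wildtype replicate 1 high for Gnb2 and low for Lsr. Ankmy2, a protein with ankyrin repeats and a MYND zinc finger, was at 0.356, 0.212 and 0.474 CPM in knockout and at 4.33, 5.79 and 6.05 CPM in wildtype. Lancl2, related to bacterial lanthionine cyclases, was at 7.92, 8.09 and 7.43 CPM in knockout and at 18.7, 34.9 and 35.2 CPM in wildtype. Knockout libraries of Lancl2 agreed to within 1 CPM of each other while wildtype replicate 1 was well below the other 2. Lhb, the beta chain of luteinising hormone, ran from 3.11 to 4.08 CPM in knockout and from 7.69 to 19.2 CPM in wildtype. Its annotated end lies 40 bases from Ruvbl2, which averaged 187 ± 8.13 CPM in knockout and 210.3 ± 35 CPM in wildtype (SD, n = 3 each). Reads could not be assigned between neighbours from gene counts.

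Nuclear proteins of transcription, chromosome maintenance and splicing made up 6 members. Ptov1 encodes a protein with a pair of domains like the activator-binding domain of the Mediator subunit Med25. Ptov1 (chr7:44863067-44870519, minus strand) was at 2.55, 2.28 and 2.53 CPM in knockout and at 107, 66.0 and 65.9 CPM in wildtype. It had the largest ratio, 32.4, among members of at least 50 CPM in wildtype. Srek1ip1, which binds a splicing regulator, was at 10.5, 12.6 and 12.3 CPM in knockout and at 177, 62.8 and 65.5 CPM in wildtype. Here the ratio of 8.63 was 5.44 without wildtype replicate 1. Zfp628, a zinc finger protein, was at 2.26, 3.08 and 2.03 CPM in knockout and at 13.8, 4.86 and 4.98 CPM in wildtype. Its ratio of 3.21 was 2.01 without wildtype replicate 1, the lowest such value of any member. Zfp628 shares 3127 bases of its span on the same strand with Nat14, so its counts are uncertain.

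The other nuclear members were lower in level or in ratio. Cux2, a homeobox transcription factor, ran from 0.448 to 0.822 CPM in knockout and from 4.09 to 8.73 CPM in wildtype. Batf3, a basic leucine zipper factor, ran from 1.66 to 2.39 CPM in knockout and from 4.71 to 9.68 CPM in wildtype. Bccip, a partner of BRCA2 and of the cell cycle inhibitor p21, ran from 4.27 to 6.02 CPM in knockout and from 16.5 to 17.7 CPM in wildtype, with a ratio of 3.25. Translation was represented by Bzw2 alone, a mimic of initiation factor eIF5. It was at 2.37, 2.52 and 3.27 CPM in knockout and at 9.71, 7.98 and 7.38 CPM in wildtype, and its ratio without wildtype replicate 1 was 2.82.

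No role was assigned to 3 members. Fam187b, predicted to encode a membrane protein, was at 1.72, 1.75 and 2.32 CPM in knockout and at 58.9, 39.6 and 42.0 CPM in wildtype, a ratio of 24.3. The single-exon gene 2310039H08Rik was at 0.683, 0.159 and 0.342 CPM in knockout and at 7.85, 4.3 and 4.49 CPM in wildtype. D16Ertd472e ran from 1.35 to 1.72 CPM in knockout and from 6.09 to 11 CPM in wildtype.

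The spread among the wildtype libraries was uneven. In 23 members wildtype replicate 1 was the highest wildtype library and in 8 the lowest, and in 29 members wildtype replicates 2 and 3 lay within 1.2 times of each other. Wildtype replicate 1 exceeded the mean of the other 2 by at least 1.5 times in 17 members and fell short of it by as much in 5. On the log2 scale it lay 0.57 above that mean for the median member and 0.04 above it for the median of the other genes. The rule used the wildtype mean, so a high value in wildtype replicate 1 helped a gene to enter. Nothing is read from this difference between members and other genes. From wildtype replicates 2 and 3 alone, 30 members kept a ratio of at least 3. The 4 under it were Lhb at 2.68, Batf3 at 2.7, Bzw2 at 2.82 and Zfp628 at 2.01. Another 4, Mpst, Acy3, Cux2 and 2310039H08Rik, kept the ratio but had a mean under 5 CPM in those libraries. With the whole rule applied without wildtype replicate 1, 27 genes qualified, of which 26 were members.

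**Figure D3:**
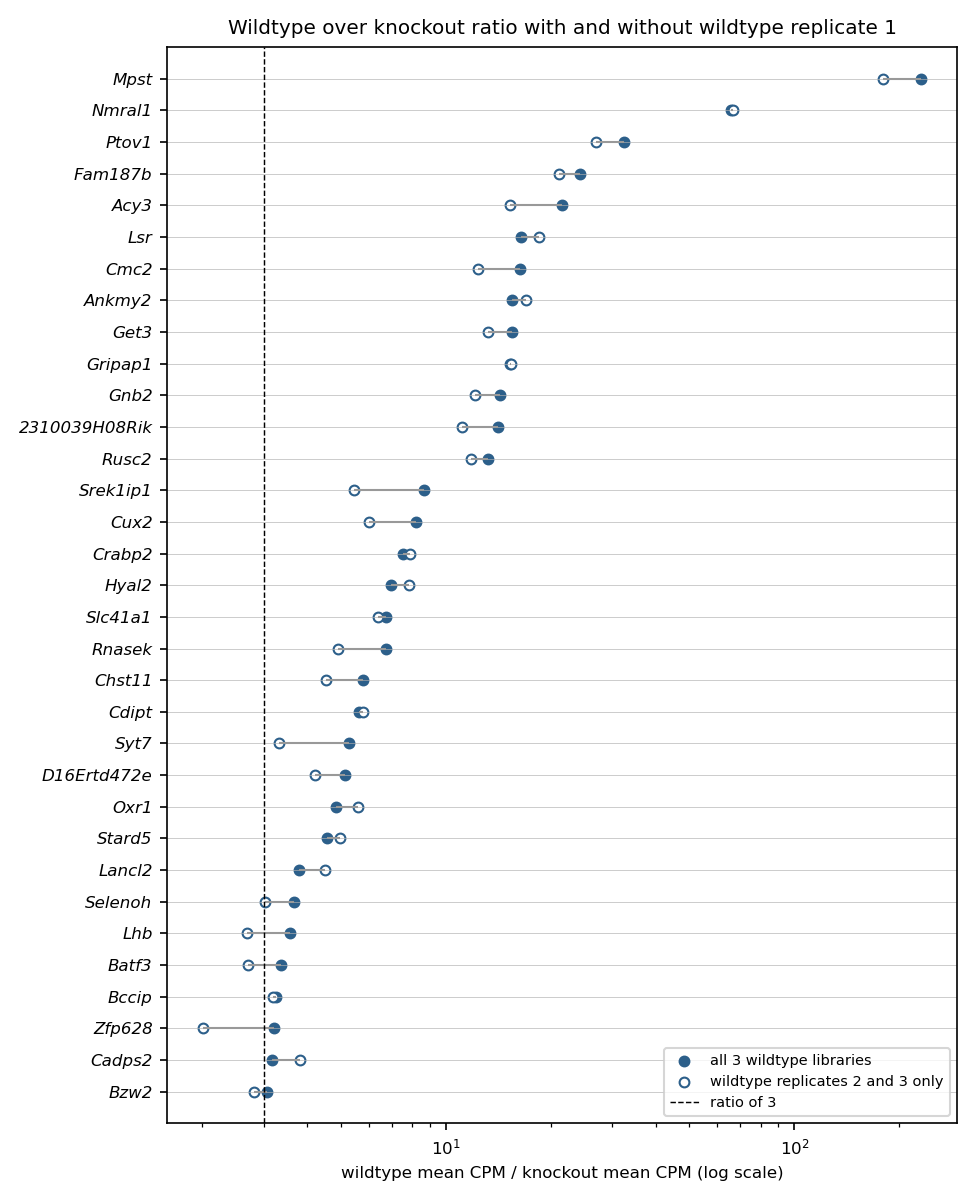
Ratio of wildtype mean CPM to knockout mean CPM for 33 members on a log axis, with all 3 wildtype libraries (filled) and with wildtype replicates 2 and 3 only (open). The 4 open points left of the dashed line at 3 are Lhb, Batf3, Zfp628 and Bzw2, and the Zfp628 ratio moves from 3.21 to 2.01.

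Members were scattered over 18 of 21 chromosomes, and none lay on chromosomes 14, 18 or Y. Chromosome 7 held 8 of them, Zfp628, Fam187b, Lsr, Ptov1, Lhb, Stard5, Cdipt and Bccip. That was 23.5% of members (95% exact binomial interval 10.7% to 41.2%, counting error only) and 7.31% of all protein-coding genes at the same wildtype level. The interval does not allow for Lsr and Fam187b being neighbours, and the chromosome was singled out after its count was seen. Within 1000000 bases of each other lay 3 pairs of members. Ptov1 and Lhb were 547088 bases apart, and the other pairs were close neighbours. By their medians, members were also more compact than the other genes. Wildtype replicate 1 helped some genes to enter, and whether its values vary with gene length was not tested. Their median exon length was 2410.5 bases against 3393 bases, their median number of exons 6.5 against 10, and their median span 11171 against 27718 bases.

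**Figure D4:**
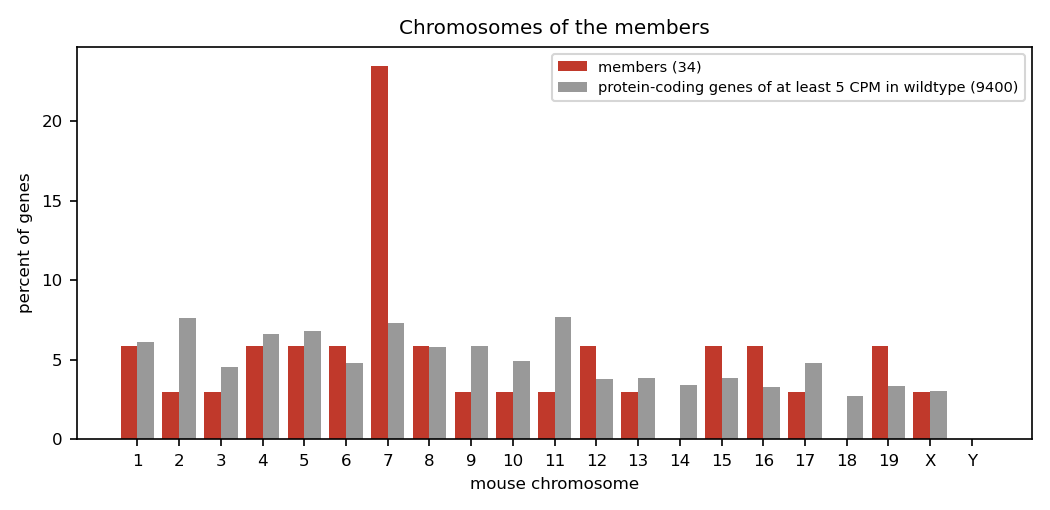
Percent of the 34 members and of the 9400 protein-coding genes of at least 5 CPM in wildtype on each mouse chromosome. Chromosome 7 holds 23.5% of members and 7.31% of the comparison genes, and no other chromosome holds more than 5.88% of members.

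Both close pairs were arranged head to head, with starts 340 bases apart for Lsr and Fam187b on chromosome 7 and 289 bases apart for Bzw2 and Ankmy2 on chromosome 12. The partners of a pair did not have the same ratio. Fam187b had 24.3 and Lsr 16.4, while Ankmy2 had 15.5 and Bzw2 3.07. RefSeq promoter windows, 250 bases before to 50 after each start, were held for 25 of the 34 members. Of these, 4 had several windows, and a word in any window of a gene was counted for it. The windows of Lsr and Fam187b had 176 bases in common and those of Bzw2 and Ankmy2 202, each at the 5′ end of the Fam187b and Ankmy2 windows printed here. The windows of Fam187b (chr7:30973544-30973843, plus strand), Ankmy2 (chr12:36156874-36157173, plus strand), Cmc2 (chr8:116921387-116921686, minus strand) and Rusc2 (chr4:43406252-43406551, plus strand) are shown because they carry the 8-letter word that set members' windows furthest apart from those of other genes. All are RefSeq sequences of GRCm38.p6, read 5′ to 3′ on the gene's strand, and capitals mark GGCTGCAC or its reverse complement GTGCAGCC.
Fam187b: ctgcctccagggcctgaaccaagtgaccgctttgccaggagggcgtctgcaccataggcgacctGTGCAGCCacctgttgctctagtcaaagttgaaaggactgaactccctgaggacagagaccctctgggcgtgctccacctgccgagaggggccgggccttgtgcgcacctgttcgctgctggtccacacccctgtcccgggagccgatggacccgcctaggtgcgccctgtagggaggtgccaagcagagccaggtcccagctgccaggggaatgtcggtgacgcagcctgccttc
Ankmy2: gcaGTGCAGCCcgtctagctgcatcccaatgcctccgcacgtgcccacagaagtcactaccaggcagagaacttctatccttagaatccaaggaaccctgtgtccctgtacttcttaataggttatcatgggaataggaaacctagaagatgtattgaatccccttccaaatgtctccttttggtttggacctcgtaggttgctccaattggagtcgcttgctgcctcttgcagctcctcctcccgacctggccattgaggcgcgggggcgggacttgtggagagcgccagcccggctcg
Cmc2: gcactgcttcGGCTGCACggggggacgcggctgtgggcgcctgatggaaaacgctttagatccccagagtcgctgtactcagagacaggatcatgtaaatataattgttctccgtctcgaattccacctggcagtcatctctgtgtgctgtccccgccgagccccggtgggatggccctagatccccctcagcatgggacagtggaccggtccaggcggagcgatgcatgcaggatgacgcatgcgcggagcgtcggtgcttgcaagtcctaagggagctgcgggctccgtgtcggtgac
Rusc2: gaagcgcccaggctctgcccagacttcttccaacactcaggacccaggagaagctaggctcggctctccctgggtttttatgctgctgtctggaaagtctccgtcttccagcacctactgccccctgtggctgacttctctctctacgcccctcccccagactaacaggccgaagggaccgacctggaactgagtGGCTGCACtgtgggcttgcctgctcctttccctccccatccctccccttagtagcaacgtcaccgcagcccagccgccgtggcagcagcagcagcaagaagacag

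Of all 8-letter words, counted on both strands, GGCTGCAC showed the largest difference in share. It was in the windows of 6 of 25 members (24.0%), against 2.52% of 7645 other protein-coding genes at the same wildtype level. The 6 were Fam187b, Lsr, Ankmy2, Bzw2, Cmc2 and Rusc2, and since each pair shares its copy they hold 4 places in the genome. The Cmc2 and Rusc2 windows lie inside those genes' bounds (chr8:116888685-116944322 and chr4:43377202-43427092), not at their outer 5′ ends. None of the 12 genes left out by name that had a window carried the word. The word next in order, GCTCCGCC, was in 9 members (36.0%), in 16.5% of the other genes and in 1 of those 12 genes. No 8-letter word was in more than 9 of the 25 windows, so no word was common to most members. A word chosen as the most different of all words must differ, and a match is a description of letters in the window only. Members' windows had a median GC content of 58.7%, against 60.7% in the other genes. The CpG ratio, observed over expected, had a median of 0.644 against 0.776, and 16 of 25 members (64.0%) reached 0.6 against 73.8% of the other genes.

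Genes beside the members were tested with edgeR, since the rule had not used them. Across all 14957 genes tested, 5.34% were called lower in knockout and 5.87% higher at an adjusted p under 0.05. The members themselves were called lower in 33 of 34 cases, Crabp2 being the exception, and nothing is read from this because the same values chose them. Besides the member pairs, 5 genes started within 1000 bases of a member in the head to head arrangement, and 4 were tested. Only Cenpn, a centromere protein gene that starts 285 bases from Cmc2, was called. Cenpn was at 182, 189 and 184 CPM in knockout and at 420.2, 439 and 415 CPM in wildtype, with no overlap. Its log2 fold change was -1.20 ± 0.114 (SE), with an adjusted p of 0.00151 by edgeR's quasi-likelihood test and a range of 9.79e-18 to 0.0222 over the alternatives. Cenpn and Cmc2 overlap by 19789 bases on opposite strands, and without a stated strand setting their reads cannot be told apart there. The other tested neighbours were Cwc27 at a log2 fold change of 0.02 beside Srek1ip1, Cdiptos at -0.37 beside Cdipt and Uros at -0.28 beside Bccip. Tst, which encodes the related sulphurtransferase rhodanese and starts 805 bases from Mpst, had too few reads to test, 0.223 ± 0.0975 CPM in knockout and 0.211 ± 0.224 CPM in wildtype (SD, n = 3 each).

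Wider neighbours were called lower at close to the share over all genes tested, which was 5.34%. Of 64 genes adjacent to a member on either side, 48 were tested, and 3 (6.25%) were called lower, 1 higher and 44 neither, with a median log2 fold change of -0.12 against 0 over all genes tested. Tmc3, beside Stard5, was at 0.861, 0.557 and 0.975 CPM in knockout and at 4.12, 1.67 and 2.98 CPM in wildtype, with a log2 fold change of -1.86 and an adjusted p of 0.0186 by edgeR. Ssc5d, beside Zfp628, had a log2 fold change of -1.91 and an edgeR adjusted p of 0.0313, at 0.237 ± 0.0461 CPM in knockout and 0.895 ± 0.497 CPM in wildtype (SD, n = 3 each). Both were low-level transcripts. Tesk1, a protein kinase gene beside Rusc2, averaged 9.01 ± 1.10 CPM in knockout and 14.7 ± 1.85 CPM in wildtype (SD, n = 3 each), and its log2 fold change was -0.70 with an adjusted p of 0.0254 by edgeR. Akt1s1, which encodes the mTORC1 component PRAS40 and lies beside Ptov1, averaged 61.7 ± 4.04 CPM in knockout and 41.6 ± 9.3 CPM in wildtype (SD, n = 3 each), and its log2 fold change was 0.58 with an edgeR adjusted p of 0.0443. Kctd17, beside Mpst, just missed the threshold with a log2 fold change of -1.04 and an adjusted p of 0.0501 by edgeR. Shisal2b, beside Srek1ip1, had the largest change of any tested adjacent gene and was higher, at 2.28 ± 0.258 CPM in knockout and 0.527 ± 0.556 CPM in wildtype (SD, n = 3 each). Its log2 fold change of 2.04 missed the threshold with an edgeR adjusted p of 0.0576. Without wildtype replicate 1, 13 of 48 adjacent genes (27.1%) were called, against 34.4% of all genes tested at that setting. Without knockout replicate 1, 2 or 3, edgeR called 0 of 50 adjacent genes, against 2.48%, 2.35% and 2.64% of all genes, with 11, 11 and 10 at an unadjusted p under 0.05.

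**Figure D5:**
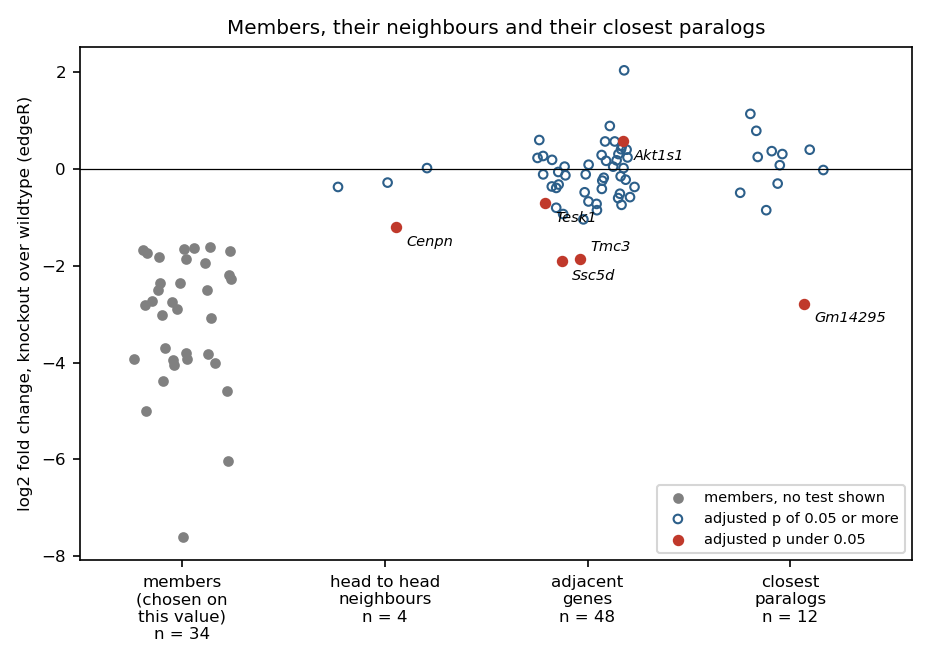
Fitted log2 fold change, knockout over wildtype, of the members and of 3 kinds of related genes that the rule did not use; filled red points had an edgeR adjusted p under 0.05. Members run down to -7.60, the tested adjacent genes from -1.91 for Ssc5d to 2.04 for Shisal2b, and the tested paralogs from -2.78 for Gm14295 to 1.14 for Esyt3.

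Closest paralogs, the most similar other mouse proteins, were found for 19 members, and 12 of these were expressed enough to be tested. The median log2 fold change of the 12 was 0.16. Of the 12, 1 (8.33%) was called, against 11.2% of all genes tested. The paralog called was Gm14295, a zinc finger gene matched to Zfp628 with 38.5% identity. It was at 0.386, 0.742 and 0.527 CPM in knockout and at 4.33, 3.64 and 3.6 CPM in wildtype. Its log2 fold change was -2.78 ± 0.268 (SE), with an edgeR adjusted p of 0.00156, and a zinc finger match of this kind says little of kinship. Esyt3, matched to Syt7, had 31.5% identity over only 51% of Syt7. Its log2 fold change of 1.14 missed the threshold with an edgeR adjusted p of 0.0698. Several paralogs are better established. Bzw1, with 71.9% identity to Bzw2, had a log2 fold change of -0.02. Without wildtype replicate 1 it was -0.32, with an edgeR adjusted p of 0.0267. Gnb1, with 90.3% identity to Gnb2, was at 88.3, 93.0 and 85.7 CPM in knockout and at 73.9, 68.7 and 64.8 CPM in wildtype, a log2 fold change of 0.37 that missed the threshold with an edgeR adjusted p of 0.0652. Lancl1, the paralog of Lancl2, was at 0.25 and Slc41a2, that of Slc41a1, at 0.31 on the same scale. Without wildtype replicate 1, Gnb1 was at 0.37 and Lancl1 at 0.28, both called higher with edgeR adjusted p-values of 0.00215 and 0.00858. Med25, the paralog of Ptov1 and also its neighbour, averaged 22.5 ± 5.15 CPM in knockout and 41.3 ± 17.6 CPM in wildtype (SD, n = 3 each), and its log2 fold change was -0.85 with an edgeR adjusted p of 0.0825. Without wildtype replicate 1 its log2 fold change was -0.52 with an adjusted p of 0.0217 by edgeR, over alternatives that ran from 0.0194 to 0.251.

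Partners of the members in their pathways and complexes were examined in 10 lists, 2 of them general lists and 8 drawn up once the members were known. Of 132 other genes tested in these lists, 8 were called lower, 4 higher and 120 neither, which makes 9.09% called against 11.2% of all genes tested, and their median log2 fold change was -0.02. None of the 32 tested Mediator subunits was called beside Ptov1 by edgeR, 4 had an unadjusted p under 0.05, and DESeq2 called 1. None of the 6 tested genes of the tail-anchored insertion pathway was called beside Get3 by edgeR, 1 had an unadjusted p under 0.05, and DESeq2 called 1. Get1, the membrane receptor of Get3, averaged 6.15 ± 0.666 CPM in knockout and 6.25 ± 0.592 CPM in wildtype, and Caml, its partner in that receptor, 59.5 ± 2.12 CPM in knockout and 60.9 ± 0.572 CPM in wildtype (SD, n = 3 each). None of the 8 tested genes of phosphatidylinositol synthesis was called beside Cdipt by edgeR or DESeq2, and 1 had an unadjusted p under 0.05.

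In the list of sulphur transfer, 1 of 7 tested genes was called beside Mpst. Ethe1, the mitochondrial persulphide dioxygenase, averaged 15.3 ± 0.945 CPM in knockout and 23.7 ± 5.24 CPM in wildtype (SD, n = 3 each), and its log2 fold change was -0.62 with an edgeR adjusted p of 0.0405. Among 9 tested G protein beta and gamma subunits, Gng3 was called lower beside Gnb2. Gng3 averaged 97.0 ± 3.94 CPM in knockout and 212 ± 68.1 CPM in wildtype (SD, n = 3 each), and its log2 fold change was -1.11 with an edgeR adjusted p of 0.0107. Among 20 tested genes of cytochrome c oxidase assembly, Cox20 was called lower beside Cmc2, with a log2 fold change of -0.89 and an edgeR adjusted p of 0.0468.

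The exocytosis list held Syt7 and Cadps2 as members, and 3 of its 16 other tested genes were called. Syt11 and Cplx1 were lower, at log2 fold changes of -0.78 and -0.81, and Syt2 was higher at 0.67. In the list of hyaluronan and chondroitin sulphate turnover, which held Hyal2 and Chst11, 2 of 8 other tested genes were called. The hyaluronan synthase Has3 was lower, with a log2 fold change of -0.82, and the sulphotransferase Chst15 was higher at 1.64 from a low level of 0.621 ± 0.229 CPM in wildtype (SD, n = 3). In the retinoic acid list, which held Crabp2, 2 of 11 were called, the retinaldehyde reductase Dhrs3 lower at -1.13 and the receptor Rarb higher at 0.71. In the list of arginine and nitrogen metabolism, which held Nmral1, 2 of 15 were called, Cps1 lower at -0.73 and the asparagine synthetase Asns higher at 0.82. The edgeR adjusted p-values of these 9 genes lay between 0.0103 and 0.0469. Without knockout replicate 1 or 3, edgeR called 0 partners, against 2.48% and 2.64% of all genes tested. In each case 28 partners had an unadjusted p under 0.05. The fit called 1 partner without knockout replicate 2 (0.746%), 4 without wildtype replicate 2 (2.96%) and 5 without wildtype replicate 3 (3.73%). The shares over all genes tested at those settings were 2.35%, 5.9% and 6.02%. Without wildtype replicate 1 edgeR called 47 of 132 partners (35.6%), against 34.4% of all genes tested at that setting.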

How the data were processed

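cDNA was made from about 10 pooled oocytes per library with the SMARTer Ultra Low Input kit and sequenced single-end after NexteraXT preparation, per the labels' protocols. The values the authors deposited are raw counts of reads per Entrez gene, 1 table per library. Per the submitters' processing notes, STAR 2.7.11a, featureCounts 2.0.3 and build GRCm38.p6 (mm10) were used. For the annotation, the strand setting and the treatment of multimapping reads, no source used here gives a statement. Of 27179 identifiers, 25275 were named from a RefSeq table of that assembly.

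CPM here is the count divided by the library total. Genotype was tested with edgeR 4.0.16 (filterByExpr, TMM, quasi-likelihood F test, Benjamini-Hochberg adjustment over 14957 genes, called under 0.05) and checked on simulated counts. The simulated counts had the same dispersion in all genes and libraries and no outlying library. The check thus does not cover a library that stands apart, as wildtype replicate 1 does. The members and gene lists were chosen with earlier results of these data known. Every member but 1, which is not reported here, is named, and values of every library are given for the 12 largest ratios, the 12 highest wildtype means and the 4 smallest ratios. Of related genes, those called and a few with the smallest p or a known kinship are named. Lists without a member are not described. Exon lengths and paralogs come from GENCODE M21, the paralogs from blastp 2.17.0 on translated coding sequences (at least 30% identity over 50% of the member) in place of a RefSeq protein table. Alternatives were DESeq2 1.42.0, its size factors, library totals, no filter and a stricter one, limma-voom (limma 3.58.1), a replicate block, each library left out, and other thresholds of the rule. Floors and intervals cover counting error only.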

Additional observations from a re-analysis of the deposited data

How the results depend on the processing

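The same 34 genes met the rule with TMM-scaled or DESeq2-scaled library sizes and with totals that left out mitochondrial counts. A wildtype minimum of 2 CPM gave 52 genes and a ratio minimum of 2 gave 185; leaving out 1 library gave between 27 and 50. Against 1676 genes called in the whole table, the DESeq2 Wald test called 2532, a filter of 5 CPM in 3 libraries 1038 and the replicate block 537. Leaving out 1 library gave between 357 (without knockout replicate 2) and 5199 (without wildtype replicate 1). Calls beside the members moved with it. Adjacent genes called were 4, and 2 with the stricter filter, 10 by DESeq2, 1 with the replicate block and 0 to 13 on leaving out 1 library. Head to head neighbours called were 1, and 1 to 2 on leaving out 1 library. Paralogs called were 1, and 0 with the stricter filter or at least 50% identity, 4 by DESeq2 and 1 to 6 on leaving out 1 library. Partners called were 12, and 23 by DESeq2, 1 with the replicate block and 0 to 47 on leaving out 1 library. Replicate numbers were not treated as pairs: deviations of same-numbered libraries correlated at -0.058, 0.01 and -0.094. The leading promoter word changed under each of the 5 other settings tried, to GGGTCCA with 7 letters and GGCCCGGCC with 9, and to GCTCCGCC when overlapping pairs were counted once, a setting chosen after seeing the data. Levels under about 0.1 CPM rest on 3 or fewer reads.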

Other observations

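Outside protein-coding genes, 4 further identifiers met the same level, ratio and separation. The long noncoding RNA 4930405A21Rik was at 5.52, 5.57 and 6.03 CPM in knockout and at 24.8, 15.9 and 16.5 CPM in wildtype, a ratio of wildtype mean to knockout mean of 3.34. Another pair of long noncoding RNAs, 1700097N02Rik on chromosome 17 and E330020D12Rik on chromosome 1, had ratios of 3.23 and 3.05, and 1 identifier had no symbol in the tables used. In all 4, wildtype replicate 1 was the highest library.

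Below the wildtype minimum of 5 CPM, and leaving aside genes left out by name, the nearest protein-coding genes with a ratio of at least 3 and no overlap were Olfr1463, an olfactory receptor gene at 1.35 ± 0.0496 CPM in knockout and 4.78 ± 0.684 CPM in wildtype, and Lin7b, a polarity scaffold gene at 1.34 ± 0.183 CPM in knockout and 4.58 ± 1.09 CPM in wildtype (SD, n = 3 each).

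The 7 markers of blood, immune and endothelial cells, of which 2 reached 1 CPM, summed to between 115 and 116 CPM in knockout and between 36.9 and 74.8 CPM in wildtype. Among them, Pecam1 was at 104, 104 and 105 CPM in knockout and at 32.6, 72.8 and 73.6 CPM in wildtype, while Hba-a1 and Cdh5 were at 0 in all libraries. Cd68, the other marker to reach 1 CPM, was at 10.4, 10.9 and 10.3 CPM in knockout and at 3.89, 1.37 and 1.2 CPM in wildtype. The 8 markers of theca and stroma summed to between 6.97 and 18.0 CPM in knockout and between 4.89 and 21.4 CPM in wildtype. Cyp11a1, a steroidogenic marker among them, was at 2.26, 2.04 and 11 CPM in knockout and at 12.3, 1.67 and 0.934 CPM in wildtype, so that knockout replicate 3 and wildtype replicate 1 were the high libraries. Whether cells of these kinds were present, or added to the members' values, was not tested.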
